A study of Drosophila melanogaster with 8 samples.

Results

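Peptidoglycan recognition proteins (PGRPs) are the family through which flies sense bacterial cell walls. The 10 PGRP genes described here, PGRP-SA, PGRP-SB1, PGRP-SC1a, PGRP-SC2, PGRP-SD, PGRP-LA, PGRP-LB, PGRP-LC, PGRP-LE and PGRP-LF, were taken by gene symbol from 16727 symbols. FPKM, a read count per transcript length and per library size, was summed over their 27 listed transcripts. The study measured poly(A) RNA of Drosophila melanogaster heads in 4 groups of 2 libraries. These were vriΔ679 at ZT14, wild type at ZT14, vriΔ679 at ZT2 and wild type at ZT2, where ZT counts hours from lights on. vri (vrille) encodes a bZIP repressor of the circadian clock, and vriΔ679 is named in the labels only as a mutant strain, while the wild-type strain is given as w1118. All flies were kept at 25 °C in 12 h light and 12 h dark, were entrained for 3 days and were taken on the next day, so ZT14 fell in the early night and ZT2 in the morning. The labels give neither sex nor age, and nothing states that replicates came from separate fly samples, so p-values measure the spread between these libraries, which may be technical.

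In Drosophila, PGRPs divide by what they do after meeting peptidoglycan. PGRP-SA and PGRP-SD act in the hemolymph upstream of the Toll pathway, whereas PGRP-LC at the membrane and PGRP-LE inside the cell or secreted are the receptors of the Imd pathway, which drives antimicrobial peptide genes. PGRP-LB, PGRP-SC1a, PGRP-SC2 and PGRP-SB1 are amidases that cut peptidoglycan. PGRP-LB and the PGRP-SC enzymes thereby limit Imd signalling, and PGRP-LB and PGRP-SC2 are themselves induced by that pathway. In adults the fat body, gut, trachea and hemocytes are the best known sites of PGRP function, and a head sample holds fat body alongside nervous tissue, eye and muscle.

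Depth, as derived from the deposited coverage and FPKM, was 49.3 to 65.4 M mapped reads per library. The vri gene itself was checked by its long form, which starts at position 5305650. This form made up 1.00 % of vri FPKM in vriΔ679 ZT14 replicate 1 but 74.1 % in the library labelled vriΔ679 ZT14 replicate 2, against 96.4 and 99.0 % in wild type at ZT14. At ZT2 it made up 0.504 and 0.275 % in vriΔ679 and 95.5 and 99.6 % in wild type. In its share of the long form, the library labelled vriΔ679 ZT14 replicate 2 therefore went against its label. Its other vri transcripts had 10.5 scaled FPKM, against 21.5 in replicate 1 and 3.04 and 0.707 in wild type at ZT14. Where a result for a PGRP gene rests on this library and changes without it, the value without it is given too. The white gene, w, stood at 0.0336 to 0.0816 scaled FPKM in the 4 vriΔ679 libraries and at 2.12 to 5.97 in the 4 wild-type libraries. By w, the library labelled vriΔ679 ZT14 replicate 2 (0.0816) thus stood with the stock of its label. RNA of w in the wild-type libraries goes against their w1118 label, since w1118 is a white-mutant stock, and the stocks differed at a second locus, so effects of vri and of stock background cannot be told apart. In bulk RNA, fewer cells of a type and less RNA per cell cannot be told apart either.

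Levels below are FPKM scaled between libraries, which is per length and can be compared between genes. PGRP-SB1 was the highest of the 10 genes in wild type at ZT14 (48.4 ± 0.867), in vriΔ679 at ZT2 (63.2 ± 45.7) and in wild type at ZT2 (110 ± 40.0; mean ± SD, n = 2 each), but the fourth in vriΔ679 at ZT14 (17.4 ± 8.75), below PGRP-LA, PGRP-LC and PGRP-SD. In that group the libraries of PGRP-LC, PGRP-SD, PGRP-SB1, PGRP-LE, PGRP-SA and PGRP-LB overlapped with those of their neighbours in the order. In wild type at ZT2 the order was PGRP-SB1, PGRP-SD, PGRP-LC, PGRP-LA, PGRP-LB, PGRP-SA, PGRP-LE, PGRP-SC2, PGRP-LF and PGRP-SC1a, and among these neighbours only PGRP-SC2 and PGRP-LF overlapped. PGRP-LA, PGRP-LC and PGRP-SD were between 18.7 and 47.1 FPKM in all 8 libraries, PGRP-LE, PGRP-SA and PGRP-LB between 6.11 and 23.6, and PGRP-LF between 2.07 and 4.27. PGRP-SC2 ranged from 0.169 to 18.5 FPKM. PGRP-SC1a was at 0 to 0.0687 FPKM, at most 2.48 read equivalents, which is below the level of 3 reads in every library, so it was not detectable at this depth and was the 1 gene of the 10 not tested. Its coding sequence is nearly identical to that of PGRP-SC1b, so reads could also have been split between these copies. The plot of levels by library shows how tightly PGRP-LC, PGRP-LA and PGRP-LF repeated and how widely PGRP-SC2, PGRP-SB1 and PGRP-SA did not.

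**Figure D1:**
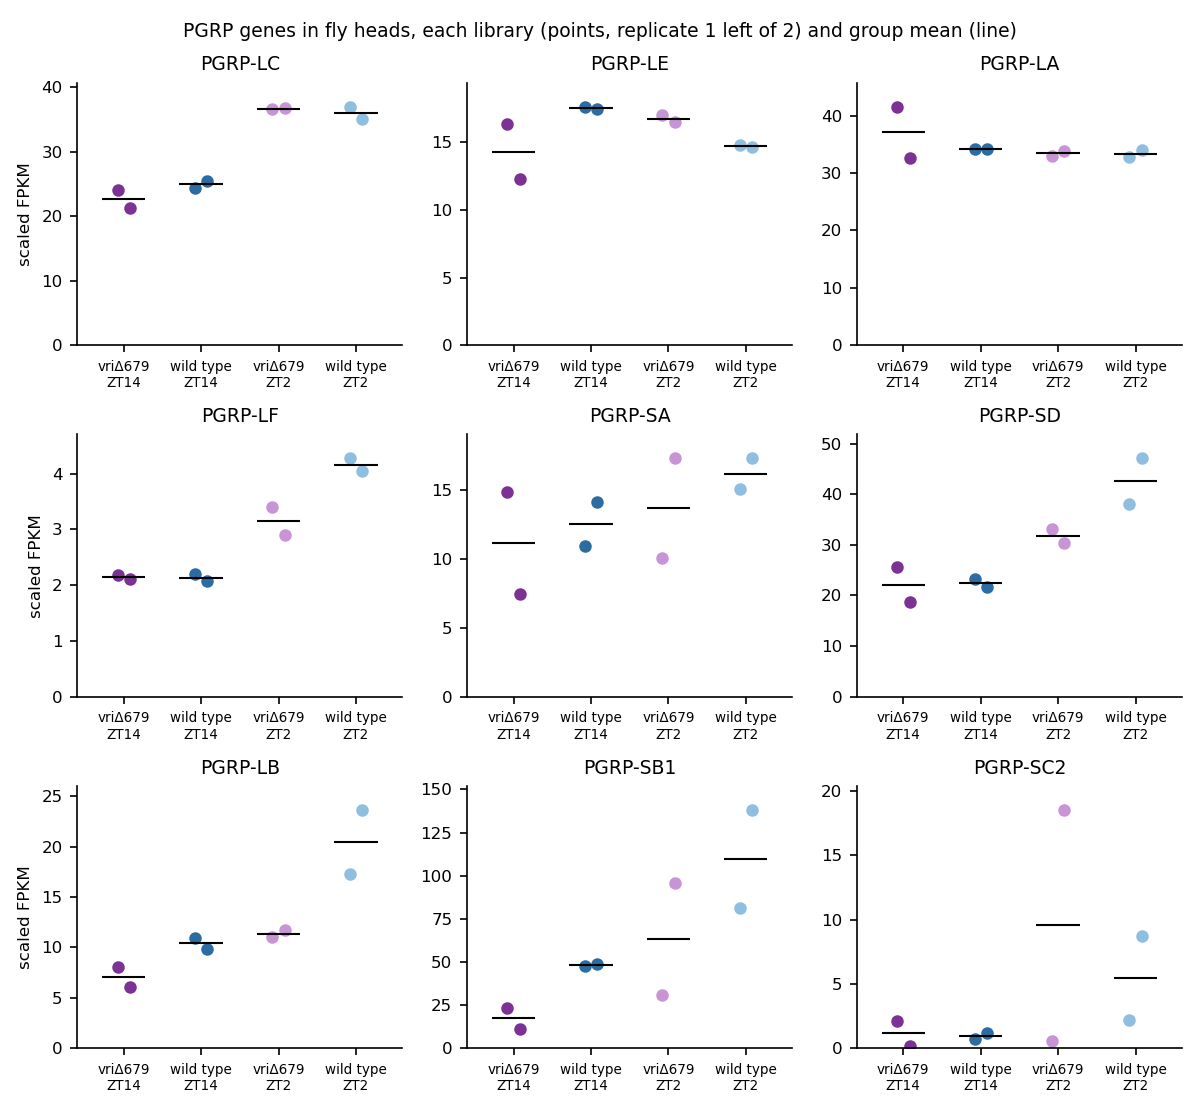
Scaled FPKM (vertical axes, from 0) of the 9 tested PGRP genes in each of the 8 libraries, as points, with group means as lines, for vriΔ679 ZT14, wild type ZT14, vriΔ679 ZT2 and wild type ZT2. PGRP-LC was at 21.3 to 25.5 in the 4 ZT14 libraries and at 35.0 to 36.9 in the 4 ZT2 libraries, while PGRP-SC2 ranged from 0.602 to 18.5 within vriΔ679 at ZT2.

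The Imd receptor gene PGRP-LC (FBgn0035976; dm6 chromosome 3L, 9338810 to 9348336, plus strand) was lower at ZT14 than at ZT2 in both genotypes. It had 24.1 and 21.3 FPKM in vriΔ679 at ZT14, 24.4 and 25.5 in wild type at ZT14, 36.5 and 36.8 in vriΔ679 at ZT2, and 36.9 and 35.0 in wild type at ZT2. All 4 ZT14 libraries were below all 4 ZT2 libraries, and within a time the genotypes lay close together, with vriΔ679 below wild type at ZT14 and overlapping it at ZT2. The fitted ZT14 minus ZT2 difference was −0.68 on the log2 scale in vriΔ679 (SE 0.11, limma, Benjamini-Hochberg adjusted p = 0.0146) and −0.52 in wild type (SE 0.11, adjusted p = 0.0386), that is 0.622 and 0.698 times the ZT2 level. Without the library labelled vriΔ679 ZT14 replicate 2 the value in vriΔ679 was −0.59 (limma adjusted p = 0.00458). The genotype difference of PGRP-LC was −0.14 at ZT14 (SE 0.11, limma adjusted p = 0.373) and 0.03 at ZT2 (SE 0.11, limma adjusted p = 0.952), and the difference between the time effects was −0.17 (SE 0.15, limma adjusted p = 0.511).

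PGRP-LC transcripts end in alternative exons that each encode a different peptidoglycan-binding ectodomain. Grouped by annotated coding end, a grouping chosen after their values were seen, those ending at 9346205 (the first of 3 ectodomain units along the gene) made up 37.2 to 49.2 % of PGRP-LC FPKM. Those ending at 9347215 (the middle unit) made up 13.5 to 26.5 %, those ending at 9348172 (the last unit) 29.9 to 45.6 %, and a minor form ending at 9346623 0.853 to 3.67 %. The first unit had 8.94 and 8.31 FPKM in vriΔ679 at ZT14, 10.4 and 9.64 in wild type at ZT14, 14.9 and 17.6 in vriΔ679 at ZT2, and 17.3 and 17.2 in wild type at ZT2. It includes a transcript starting inside the gene, at 9344324, which has no matched coding end and was placed here by its shared 3′ end. That transcript had 2.49 and 0.311 FPKM in vriΔ679 and 0.166 and 0.222 in wild type at ZT14. At ZT2 it had 5.32 and 2.99 FPKM in vriΔ679 and 3.61 and 3.04 in wild type, so part of the first unit's time difference lies in it. The middle unit had 4.72 and 3.95 FPKM in vriΔ679 and 3.94 and 3.45 in wild type at ZT14. At ZT2 it had 9.70 and 6.92 FPKM in vriΔ679 and 6.68 and 5.97 in wild type. In each of the first and middle units the 4 ZT14 libraries were all below the 4 ZT2 libraries. The last unit had 9.87 and 8.81 FPKM in vriΔ679 at ZT14, 9.22 and 11.6 in wild type at ZT14, 10.9 and 11.1 in vriΔ679 at ZT2, and 12.0 and 10.8 in wild type at ZT2. Its ZT14 libraries were below its ZT2 libraries in vriΔ679 as well, and the times overlapped in wild type. Entered in the gene table in place of PGRP-LC, the first unit differed between ZT14 and ZT2 by −0.87 in vriΔ679 (SE 0.12, limma adjusted p = 0.00907) and by −0.76 in wild type (SE 0.12, limma adjusted p = 0.0148). The middle unit differed by −0.85 in vriΔ679 (SE 0.18, limma adjusted p = 0.0334) and −0.70 in wild type (SE 0.18, limma adjusted p = 0.0724). The last unit differed by −0.23 in vriΔ679 (SE 0.14, limma adjusted p = 0.298) and −0.13 in wild type (SE 0.14, limma adjusted p = 0.713). The minor form, at 0.181 to 1.20 FPKM, was also called in vriΔ679 (−0.95, SE 0.22, limma adjusted p = 0.0398). Its difference was −0.65 without the library labelled vriΔ679 ZT14 replicate 2. In wild type the minor form differed by −0.09 (SE 0.22, limma adjusted p = 0.905). The fit did not compare these time differences between the coding ends.

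The share of PGRP-LC FPKM in the last unit was 41.4 ± 3.20 % at ZT14 and 30.9 ± 1.23 % at ZT2 (SD, n = 4 libraries of both genotypes each). It was higher in all 4 ZT14 libraries than in any ZT2 library. The exact 2-sided permutation test over the 8 libraries gave p = 0.0286, the smallest that 70 splits can give. After adjustment over the 4 coding ends it was 0.114, the smallest value that a single separated share could reach here, so missing the threshold says nothing about the size of the difference. The coding ends were grouped after these values were seen, and the test pools libraries of both genotypes. Its p-values are therefore a description of these shares and give no support for a difference. The share of the first unit was 39.1 ± 2.35 % at ZT14 and 46.2 ± 3.75 % at ZT2 (exact permutation p = 0.0571, adjusted 0.114). Transcripts of the middle unit run on through exons of the last unit, and StringTie divided reads among forms that share exons, so the split between these 2 units is less certain than the gene's total. Leaving out the library labelled vriΔ679 ZT14 replicate 2, the differences in vriΔ679 were −0.81 in the first unit (limma adjusted p = 0.00499), −0.73 in the middle unit (0.0317) and −0.14 in the last unit (0.46), and the middle unit in wild type was called (−0.70, limma adjusted p = 0.0438). The call on the middle unit in vriΔ679 ended without any 1 of the other libraries except vriΔ679 ZT14 replicate 1 (limma adjusted p from 0.0506 to 0.153 in these 6 fits). Without vriΔ679 ZT2 replicate 2 the call on the first unit of PGRP-LC in vriΔ679 ended (−0.75, limma adjusted p = 0.0725), and without any 1 of the 4 wild-type libraries that in wild type ended (limma adjusted p from 0.0766 to 0.136).

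**Figure D2:**
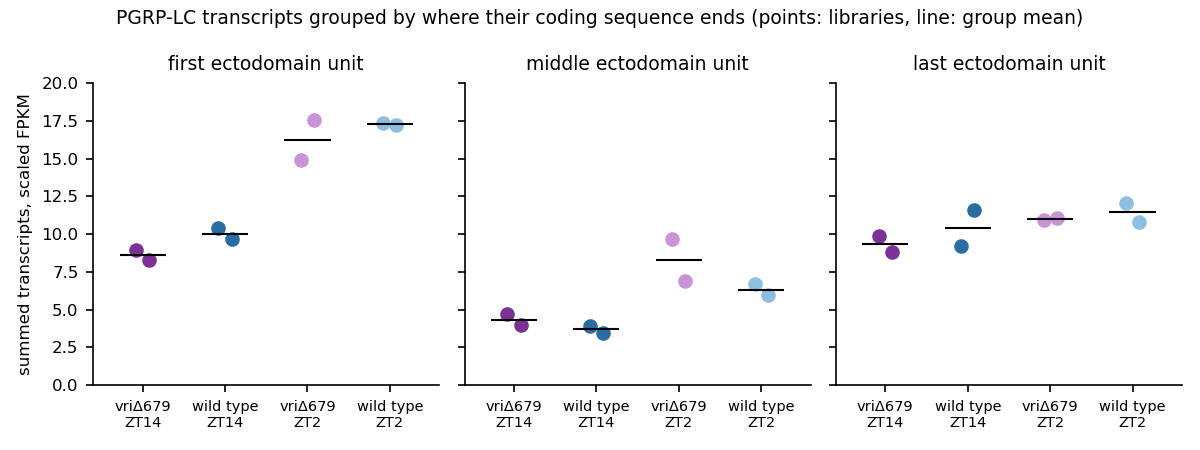
Summed scaled FPKM (vertical axis, from 0) of PGRP-LC transcripts that end in the first, middle or last ectodomain unit, for vriΔ679 ZT14, wild type ZT14, vriΔ679 ZT2 and wild type ZT2, with libraries as points and group means as lines. The first unit averaged 9.32 FPKM at ZT14 and 16.8 at ZT2 and the middle unit 4.01 and 7.32, while the last unit averaged 9.88 at ZT14 and 11.2 at ZT2.

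PGRP-LE (FBgn0030695; X, 15801153 to 15803880, minus strand), the intracellular Imd receptor, did not follow PGRP-LC. It had 16.3 and 12.2 FPKM in vriΔ679 at ZT14 and 17.6 and 17.4 in wild type at ZT14. At ZT2 it had 17.0 and 16.5 FPKM in vriΔ679 and 14.8 and 14.6 in wild type. PGRP-LE was thus lower in vriΔ679 than in wild type at ZT14 and higher at ZT2, with no overlap at either time, but no difference passed the test, and the genotype by time difference was −0.48 (SE 0.20, limma adjusted p = 0.188). With the library labelled vriΔ679 ZT14 replicate 2 left out, the PGRP-LE difference was −0.09 for genotype at ZT14 (limma adjusted p = 0.387), −0.03 for time in vriΔ679 (0.798) and −0.27 for genotype by time (0.0833). A single transcript starting at 15802969 held 95.0 to 98.9 % of its FPKM.

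PGRP-LA (FBgn0035975; 3L, 9334332 to 9338336, plus strand), a regulator of the Imd pathway that lacks residues needed to bind peptidoglycan, was the steadiest member. It had 41.5 and 32.6 FPKM in vriΔ679 at ZT14, 34.2 and 34.2 in wild type at ZT14, 32.9 and 33.9 in vriΔ679 at ZT2, and 32.7 and 33.9 in wild type at ZT2. The highest library was 1.27 times the lowest, and the vriΔ679 ZT14 libraries enclosed those of the other 3 groups. Its ZT14 minus ZT2 difference was 0.14 in vriΔ679 (SE 0.13, limma adjusted p = 0.492) and 0.04 in wild type (SE 0.13, limma adjusted p = 0.938). Without the library labelled vriΔ679 ZT14 replicate 2, PGRP-LA was higher in vriΔ679 than in wild type at ZT14 (0.29, limma adjusted p = 0.0302) and higher at ZT14 than at ZT2 in vriΔ679 (0.32, limma adjusted p = 0.0248). PGRP-LA lies 473 bases before PGRP-LC, which lies 1272 bases before PGRP-LF, all on the plus strand. These neighbours had unlike time profiles, since PGRP-LA was level where PGRP-LC and PGRP-LF were lower at ZT14.

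PGRP-LF (FBgn0035977; 3L, 9349609 to 9351489, plus strand) encodes a membrane protein without a signalling tail that inhibits PGRP-LC. It had 2.19 and 2.11 FPKM in vriΔ679 at ZT14 and 2.20 and 2.07 in wild type at ZT14, against 3.40 and 2.90 in vriΔ679 at ZT2 and 4.27 and 4.05 in wild type at ZT2. The 4 ZT14 libraries were nearly level and lay below all ZT2 libraries, among which wild type was above vriΔ679. The ZT14 minus ZT2 difference was −0.82 in wild type (SE 0.12, limma adjusted p = 0.0118), a fitted ratio of 0.565, and −0.46 in vriΔ679 (SE 0.12, limma adjusted p = 0.0608; −0.43 and 0.045 without the library labelled vriΔ679 ZT14 replicate 2). At ZT2, vriΔ679 minus wild type was −0.36 (SE 0.12, unadjusted p = 0.023, limma adjusted p = 0.249), and at ZT14 it was 0.01 (limma adjusted p = 0.954). Of its 1355 exonic bases, 602 are shared with UGP on the other strand. UGP had 84.4 ± 8.89 FPKM in vriΔ679 and 107 ± 0.101 in wild type at ZT14, and 139 ± 30.8 in vriΔ679 and 132 ± 19.6 in wild type at ZT2 (SD, n = 2 each). The library kit kept strand but the strand setting used in counting is not given in the sources used here, so reads of PGRP-LF and UGP may not have been separated. The part of UGP in the PGRP-LF values was not tested.

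Of the genes upstream of Toll, PGRP-SD (FBgn0035806; 3L, 7651180 to 7651900, plus strand) was lower at ZT14. It had 25.6 and 18.7 FPKM in vriΔ679 at ZT14, 23.3 and 21.7 in wild type at ZT14, 33.2 and 30.4 in vriΔ679 at ZT2, and 38.1 and 47.1 in wild type at ZT2. The 4 ZT14 libraries lay below the 4 ZT2 libraries, and at ZT2 vriΔ679 lay below wild type. The ZT14 minus ZT2 difference was −0.90 in wild type (SE 0.18, limma adjusted p = 0.0309), 0.537 times the ZT2 level, and −0.53 in vriΔ679 (SE 0.18, limma adjusted p = 0.101; −0.30 and 0.14 without the library labelled vriΔ679 ZT14 replicate 2, −0.76 and 0.0321 without replicate 1). The difference between these time effects was 0.37 (SE 0.25, limma adjusted p = 0.379), and 35 of 721 exonic bases are shared with CG7492 on the other strand.

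PGRP-SA (FBgn0030310; X, 11561643 to 11562779, plus strand), a receptor for Gram-positive bacteria, had 14.9 and 7.41 FPKM in vriΔ679 and 10.9 and 14.1 in wild type at ZT14. At ZT2 it had 10.1 and 17.3 FPKM in vriΔ679 and 15.1 and 17.3 in wild type. Replicates of vriΔ679 differed more than any groups did. No comparison of PGRP-SA passed the test, with fitted differences of −0.23 for genotype at ZT14, −0.28 for genotype at ZT2, −0.32 for time in vriΔ679 and −0.36 for time in wild type (SE 0.36 each, limma adjusted p from 0.558 to 0.815). With the library labelled vriΔ679 ZT14 replicate 2 left out, the sign turned for genotype at ZT14 (0.26, limma adjusted p = 0.538) and for time in vriΔ679 (0.17, limma adjusted p = 0.698).

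PGRP-LB (FBgn0037906; 3R, 11452849 to 11460552, minus strand) was the 1 member called for a difference with genotype. It had 8.11 and 6.11 FPKM in vriΔ679 and 11.0 and 9.86 in wild type at ZT14, and 11.0 and 11.7 in vriΔ679 and 17.3 and 23.6 in wild type at ZT2. At each time both vriΔ679 libraries were below both wild-type libraries, and in each genotype both ZT14 libraries were below both ZT2 libraries, with vriΔ679 at ZT2 near wild type at ZT14. Over both times vriΔ679 minus wild type was −0.67 (SE 0.13, limma adjusted p = 0.0212), a fitted ratio of 0.628. At ZT14 alone it was −0.53 (SE 0.19, limma adjusted p = 0.0851), and −0.33 without the library labelled vriΔ679 ZT14 replicate 2. At ZT2 alone it was −0.81 (SE 0.19, limma adjusted p = 0.0917), and neither time passed the threshold. Without the library labelled vriΔ679 ZT14 replicate 2 the ZT2 value passed it (−0.81, limma adjusted p = 0.0399), as it did without replicate 1 (0.0389). Without the library labelled vriΔ679 ZT14 replicate 2 the mean genotype difference of PGRP-LB was −0.57 (limma adjusted p = 0.0159). The call ended without wild-type ZT14 replicate 1 (limma adjusted p = 0.0852), wild-type ZT14 replicate 2 (0.0677), wild-type ZT2 replicate 2 (0.0701), vriΔ679 ZT2 replicate 1 (0.0725) or vriΔ679 ZT2 replicate 2 (0.068).

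With time, PGRP-LB differed by −0.93 in wild type (SE 0.19, limma adjusted p = 0.0339), 0.526 times the ZT2 level. In vriΔ679 it differed by −0.65 (SE 0.19, limma adjusted p = 0.0736), and by −0.45 without the library labelled vriΔ679 ZT14 replicate 2. The difference between the 2 time effects was 0.28 (SE 0.27, limma adjusted p = 0.527). PGRP-LB is made from 3 start sites. The transcript from 11458020, known to encode the secreted form, had 3.05 and 2.17 FPKM in vriΔ679 and 2.98 and 4.06 in wild type at ZT14, and 4.21 and 3.76 in vriΔ679 and 8.34 and 8.37 in wild type at ZT2, so that wild type at ZT2 stood above all other libraries. The 4 transcripts from 11454329, which held 51.9 to 72.8 % of the gene's FPKM, had 5.06 and 3.92 FPKM in vriΔ679 and 7.99 and 5.80 in wild type at ZT14, and 6.79 and 6.85 in vriΔ679 and 8.99 and 13.3 in wild type at ZT2. In a table of start sites the 11458020 site of PGRP-LB differed by −0.98 with genotype at ZT2 (SE 0.21, limma adjusted p = 0.154) and by −1.15 with time in wild type (SE 0.21, limma adjusted p = 0.0693). The third site, 11460552, was above 1 FPKM only in the second ZT2 replicates of vriΔ679 and of wild type, at 1.08 and 2.00 FPKM.

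The amidase gene PGRP-SB1 (FBgn0043578; 3L, 16727299 to 16727989, minus strand) had 23.6 and 11.2 FPKM in vriΔ679 and 47.8 and 49.0 in wild type at ZT14. At ZT2 it had 30.9 and 95.5 FPKM in vriΔ679 and 81.6 and 138 in wild type. The genotypes did not overlap at ZT14 but did at ZT2, and replicates within vriΔ679 at ZT2 were further apart than the means of the genotypes at that time. The vriΔ679 minus wild-type difference was −1.54 at ZT14 (SE 0.59, unadjusted p = 0.04, limma adjusted p = 0.111), −0.96 at ZT2 (SE 0.59, limma adjusted p = 0.556) and −1.25 over both times (SE 0.42, limma adjusted p = 0.101). These were the largest genotype differences fitted among the 9 tested genes at ZT14, at ZT2 and over both times, and none passed the threshold. With the library labelled vriΔ679 ZT14 replicate 2 left out it was −1.01 at ZT14 (limma adjusted p = 0.328) and −0.98 over both times (0.184). The ZT14 minus ZT2 difference of PGRP-SB1 was −1.71 in vriΔ679 (SE 0.59, limma adjusted p = 0.116) and −1.13 in wild type (SE 0.59, limma adjusted p = 0.386), and the value in vriΔ679 was −1.18 (limma adjusted p = 0.272) without that library.

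PGRP-SC2 (FBgn0043575; 2R, 8716950 to 8717695, plus strand), an amidase gene best known from the gut, had 2.15 and 0.169 FPKM in vriΔ679 and 0.717 and 1.20 in wild type at ZT14. At ZT2 it had 0.602 and 18.5 FPKM in vriΔ679 and 2.17 and 8.72 in wild type. The highest library, vriΔ679 ZT2 replicate 2, was 110 times the lowest, which was the library labelled vriΔ679 ZT14 replicate 2. Its ZT14 minus ZT2 difference was −1.78 in vriΔ679 (SE 1.51, limma adjusted p = 0.448) and −1.79 in wild type (SE 1.51, limma adjusted p = 0.635). Leaving out the library labelled vriΔ679 ZT14 replicate 2 gave −0.78 in vriΔ679 (limma adjusted p = 0.783). PGRP-SC1a (FBgn0043576; 2R, 8709733 to 8710320, plus strand) ends 6629 bases before PGRP-SC2 begins.

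The first comparison asked whether PGRP levels differ between early night and morning in wild-type heads. Of the 9 genes tested, 4 fell at ZT14, PGRP-LF, PGRP-SD, PGRP-LC and PGRP-LB, and none rose, against 2.72 % of all genes that were called lower at ZT14 and 6.63 % called in either direction. At ZT14 and ZT2 the libraries did not overlap for all 9, with 7 lower and 2 higher at ZT14, against 63.0 % of all genes without overlap and 30.9 % lower without overlap. The median difference was −0.82 over the 9 genes and 0.00 over all genes tested. These 4 calls all ended when any 1 wild-type library was left out, and 1 of them, PGRP-LF, remained without either vriΔ679 ZT2 library. All 4 remained without the library labelled vriΔ679 ZT14 replicate 2, where 14.5 % of all genes were called.

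In vriΔ679 heads, 1 gene of 9, PGRP-LC, fell at ZT14 and none rose, against 6.38 % of all genes called lower and 9.97 % called in either direction. Libraries of the times did not overlap for 6 genes, all lower at ZT14, against 56.3 % of all genes without overlap and 28.9 % lower without overlap, and the median difference was −0.53, against −0.02 over all genes tested. Without vriΔ679 ZT2 replicate 1 or 2 no gene was called, and without vriΔ679 ZT14 replicate 1 there were 4 calls, against 9.37 % of all genes. With the library labelled vriΔ679 ZT14 replicate 2 left out there were 3, PGRP-LC and PGRP-LF lower and PGRP-LA higher at ZT14, against 45.7 % of all genes called in that fit, a share of the 9 genes below the background. No PGRP gene passed the test of the difference between the time effects of the genotypes (0 of 9 by limma, 0 at an unadjusted p under 0.05), against 8.25 % of all genes called and 27.0 % at that unadjusted p. There was 1 call without the library labelled vriΔ679 ZT14 replicate 2, PGRP-SD, whose ZT14 minus ZT2 difference was then less negative in vriΔ679 than in wild type (0.60, limma adjusted p = 0.0476), against 41.6 % of all genes called.

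The genotype comparisons asked what the vriΔ679 stock changes. At ZT14 none of the 9 genes was called by limma, 2 had an unadjusted p under 0.05 (PGRP-SB1 and PGRP-LB), against 22.3 % of all genes called and 38.8 % at that unadjusted p. At ZT2 none was called, 2 had an unadjusted p under 0.05 (PGRP-LB and PGRP-LF), against 2.88 % of all genes called and 14.4 % at that unadjusted p. Over both times 1 gene fell, PGRP-LB, against 8.20 % of all genes called lower and 14.1 % called in either direction. Genotypes did not overlap for 4 genes at ZT14, all lower in vriΔ679, against 63.2 % of all genes without overlap and 31.6 % lower without overlap. At ZT2 they did not overlap for 3 lower genes and 1 higher, against 57.7 % of all genes without overlap and 29.3 % lower without overlap. Without the library labelled vriΔ679 ZT14 replicate 2, 1 gene was called at ZT14 (PGRP-LA, higher), 1 at ZT2 (PGRP-LB, lower) and 1 over both times (PGRP-LB, lower), against 51.6 % of all genes at ZT14, 6.09 % at ZT2 and 40.6 % over both times. The median difference over the 9 genes was −0.14 at ZT14 and −0.28 at ZT2, against −0.01 and 0.00 over all genes tested.

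**Figure D3:**
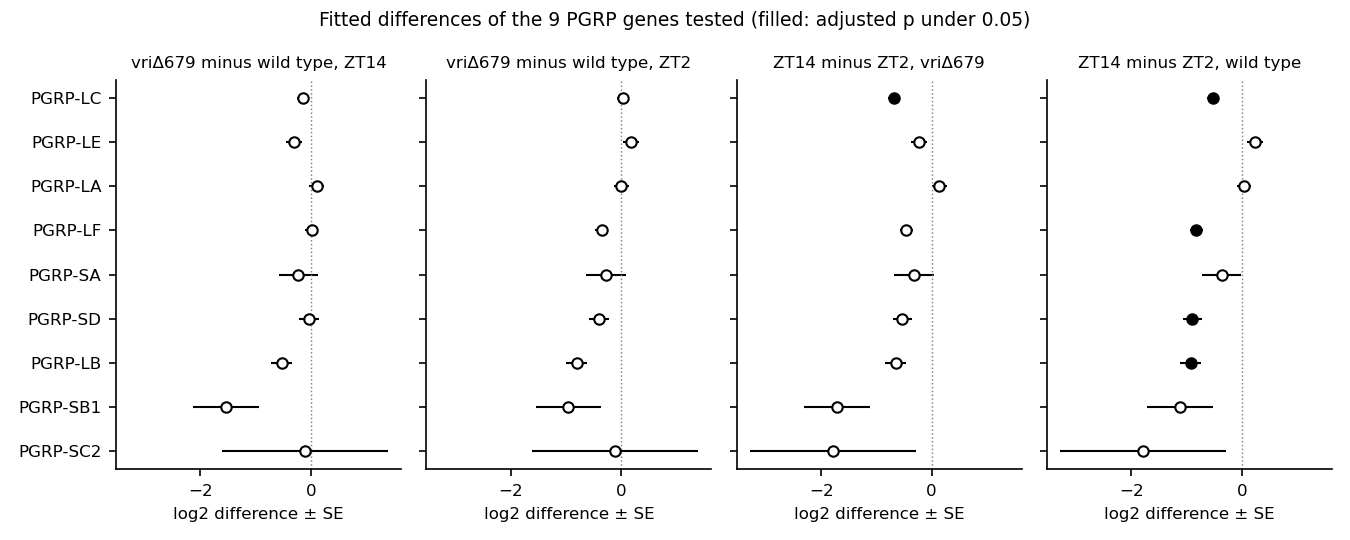
Fitted log2 differences (horizontal axes) with the SE of the fit as bars for the 9 tested PGRP genes, for vriΔ679 minus wild type at ZT14 and ZT2 and for ZT14 minus ZT2 in vriΔ679 and wild type, with filled points for adjusted p under 0.05. Filled points are PGRP-LC in vriΔ679 over time, at −0.68, and PGRP-LC, PGRP-LF, PGRP-SD and PGRP-LB in wild type over time, between −0.52 and −0.93.

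As single transcripts, 23 of 27 passed the filter and none was called in any of the 6 comparisons by limma, with 1 to 7 at an unadjusted p under 0.05. The smallest limma adjusted p was 0.0915. Of all transcripts, 4.75 % were called for genotype at ZT14, 0.738 % at ZT2, 3.05 % over both times, 2.39 % for time in vriΔ679, 1.12 % for time in wild type and 1.91 % for genotype by time. As start sites, 15 were tested and none called, with 1 to 7 at an unadjusted p under 0.05, and a smallest limma adjusted p of 0.0669. Of all start sites, 9.06 % were called for genotype at ZT14, 1.13 % at ZT2, 5.19 % over both times, 3.10 % for time in vriΔ679, 2.08 % for time in wild type and 2.62 % for genotype by time. Which PGRP-LA start site was used could not be read reliably, since the upstream site at 9334332 held 1.76 to 51.6 % of its FPKM across libraries.

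Replicates of PGRP genes varied by very different amounts. The mean absolute log2 difference between replicates was 2.09 for PGRP-SC2, 0.862 for PGRP-SB1 and 0.561 for PGRP-SA, larger than in 99.7, 98.1 and 95.3 % of all genes tested. It was 0.262 for PGRP-LB and 0.242 for PGRP-SD. PGRP-LE (0.117), PGRP-LA (0.109), PGRP-LF (0.0949) and PGRP-LC (0.0797) were below the median over all genes, 0.186.

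The antimicrobial peptides, the outputs of the Toll and Imd pathways, also varied between replicates. The summed FPKM of 17 effector peptide genes was 1471 and 604 in vriΔ679 and 1147 and 1135 in wild type at ZT14, and 951 and 3891 in vriΔ679 and 1598 and 3138 in wild type at ZT2. In the 3 groups where the peptide sum differed between replicates by 1.96-fold or more, PGRP-SC2, PGRP-SB1 and PGRP-SA were each higher in the library with more peptide RNA. One of these groups is vriΔ679 at ZT14, whose libraries also differ in the form of vri they carry. PGRP-LA was higher in the same library in these 3 groups too, by 0.04 to 0.35 on the log2 scale, as was PGRP-LB, by 0.09 to 0.45. The other genes went both ways in vriΔ679 at ZT14, vriΔ679 at ZT2 and wild type at ZT2, given in that order. PGRP-SD differed by 0.45, −0.13 and 0.31, PGRP-LC by 0.18, 0.01 and −0.08, PGRP-LE by 0.41, −0.04 and −0.01, and PGRP-LF by 0.05, −0.23 and −0.08. In wild type at ZT14 the peptide sums differed by only 1.01-fold, so that group was left out of these statements. None of the 16 tested effector genes was called in any comparison by limma, and 1 had an unadjusted p under 0.05, for time in vriΔ679. The part of this shared variation in the PGRP differences was not tested.

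**Figure D4:**
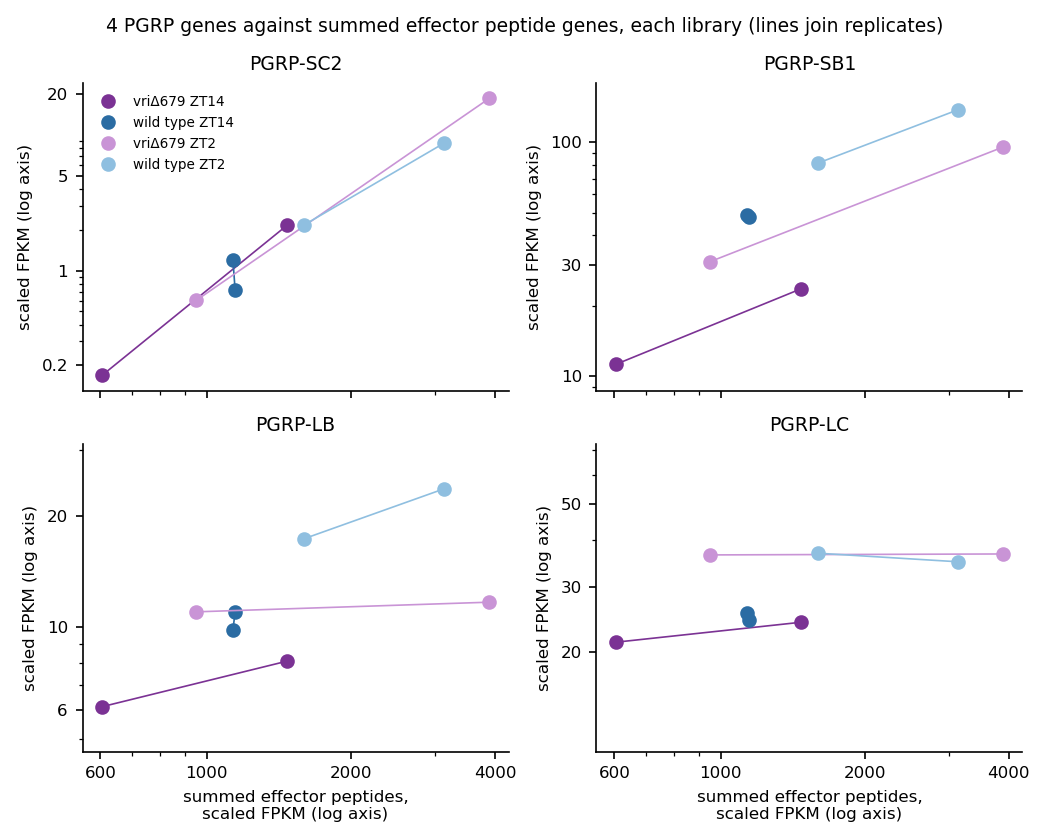
Scaled FPKM of PGRP-SC2, PGRP-SB1, PGRP-LB and PGRP-LC (vertical log axes) against the summed scaled FPKM of 17 effector peptide genes (horizontal log axis) in each library, with a line joining replicates of vriΔ679 ZT14, wild type ZT14, vriΔ679 ZT2 and wild type ZT2. Within vriΔ679 at ZT2 the peptide sum was 951 and 3891, PGRP-SC2 was 0.602 and 18.5, and PGRP-LC was 36.5 and 36.8.

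By the root mean square difference of centred log2 levels over the 8 libraries, PGRP-SC2 was most like AttA (0.395), AttB (0.402) and edin (0.549), which encode immune-induced peptides. PGRP-LB was most like CG13748 (0.106), CG8303 (0.138) and pirk (0.146), of which pirk encodes an inhibitor that binds PGRP-LC. PGRP-SB1 was most like CG43175 (0.389), CG42807 (0.430) and the serpin gene Spn88Eb (0.444). Some of these genes were low, with CG13748 at 0.269 to 2.16 FPKM, CG43175 at 0.256 to 4.32 and edin at 0 to 11.8. At such levels the 0.5 FPKM added before taking logs shrinks differences.

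Downstream of the receptors, 17 Imd pathway genes were tested, and 1 was higher and 3 lower in vriΔ679 at ZT14, against the 22.3 % of all genes called there. It was 5 higher and 3 lower without the library labelled vriΔ679 ZT14 replicate 2, against 51.6 % of all genes. Uev1A, a ubiquitin-conjugating enzyme variant that acts in Imd signalling, averaged 138 ± 9.20 FPKM in vriΔ679 and 42.5 ± 2.35 in wild type (SD, n = 2 each; log2 difference 1.69, limma adjusted p = 0.00135). The ubiquitin protease scny averaged 21.0 ± 3.09 in vriΔ679 and 48.9 ± 1.26 in wild type (−1.20, limma adjusted p = 0.00237). The E2 enzyme gene eff averaged 164 ± 6.80 in vriΔ679 and 270 ± 3.54 in wild type (−0.72, limma adjusted p = 0.0079). At ZT2 no Imd gene was called and 1 had an unadjusted p under 0.05, pirk, which averaged 5.26 ± 0.917 FPKM in vriΔ679 and 9.98 ± 1.59 in wild type (−0.86, limma adjusted p = 0.128). With time 1 Imd gene rose in vriΔ679 (4 higher and 3 lower without the library labelled vriΔ679 ZT14 replicate 2, against 45.7 % of all genes), and 1 rose and 1 fell in wild type. Of 17 Toll pathway genes tested, 2 fell in vriΔ679 at ZT14, the adaptor gene Myd88 (−0.75, limma adjusted p = 0.00423) and the NF-κB gene Dif (−0.42, limma adjusted p = 0.0299). None was called at ZT2 (2 at an unadjusted p under 0.05). With time, 2 Toll genes fell at ZT14 in vriΔ679 and none in wild type (1 at an unadjusted p under 0.05). The Imd and Toll counts with time stand against 9.97 % of all genes called in vriΔ679 and 6.63 % in wild type. Those at ZT2 stand against 2.88 % of all genes called and 14.4 % at that unadjusted p. The Toll count at ZT14 likewise stood against 22.3 % of all genes, and was 1 higher and 5 lower without the library labelled vriΔ679 ZT14 replicate 2. The remaining family genes were PGRP-LD, at 11.2 to 17.4 FPKM and not called in any comparison, and PGRP-SB2 and PGRP-SC1b, below 1 FPKM in all libraries.

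Cell type markers moved with the groups as well. The summed FPKM of 11 fat body markers was 2842 and 1868 in vriΔ679 and 7580 and 3708 in wild type at ZT14, and 10677 and 6915 in vriΔ679 and 13449 and 8557 in wild type at ZT2. Of these 11, 4 were lower and 1 higher in vriΔ679 at ZT14, against 22.3 % of all genes called. At ZT2 1 was lower and 2 higher in vriΔ679 (median log2 difference 0.22), against 2.88 % of all genes. With time, 6 were lower and 1 higher at ZT14 in vriΔ679, against 9.97 % of all genes. In wild type 1 was lower and 3 higher at ZT14, against 6.63 %. The sum of 13 hemocyte markers was 109 and 121 in vriΔ679 and 222 and 273 in wild type at ZT14, and 191 and 215 in vriΔ679 and 270 and 195 in wild type at ZT2, with 4 of 12 tested lower in vriΔ679 at ZT14. Of 7 trachea and barrier epithelium markers 6 were lower in vriΔ679 at ZT14, with sums of 236 and 246 in vriΔ679 and 765 and 901 in wild type. At that time 6 of 8 glia and 5 of 8 muscle markers were also lower in vriΔ679, and 4 of 8 photoreceptor markers were higher. None of 8 neuron markers was called at ZT14 (1 at an unadjusted p under 0.05 by limma). The counts of all these cell types at ZT14 stand against 22.3 % of all genes called and 38.8 % at that unadjusted p. With time in wild type, 4 trachea (median 0.70) and 2 muscle markers were higher at ZT14, and 1 hemocyte and 1 photoreceptor marker lower. These stand against 6.63 % of all genes. With time in vriΔ679, 4 trachea (median −1.16), 3 hemocyte and 1 glia marker were lower at ZT14, and 2 photoreceptor markers higher, against 9.97 %. No neuron marker was called with time in either genotype. Of 8 gut markers, 4 were below 1 FPKM in every library, and among them Jon65Aiv was at 0 in all. The other 4 each had an unadjusted p under 0.05 by limma for time in wild type, against 2025 of 10122 genes tested. Of these 4, 1 was called lower at ZT14 by limma, against 2.72 % of all genes. Their median difference was −0.98. Of the 10 fat body markers tested without the library labelled vriΔ679 ZT14 replicate 2, 3 were lower and 2 higher in vriΔ679 at ZT14, and 3 neuron markers were lower and 1 higher. In that fit 5 hemocyte, 7 trachea, 6 glia and 5 muscle markers were lower and 5 photoreceptor markers higher, against 51.6 % of all genes called. The part of these marker differences in the PGRP results was not tested.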

How the data were processed

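Poly(A) RNA of fly heads was sequenced as stranded 75 nt single-end reads, 4 libraries to a run, per the labels' protocols. Per the submitters' processing notes, STAR 2.6.1d, StringTie and the dm6 genome were used, and the annotation release and strand setting are not given in the sources used here. The authors deposited FPKM and coverage (a signal per base) for 35411 transcripts. The deposited coverage was used here only to derive mapped reads, a depth at which 3 reads on the PGRP-SC1a transcript equal 0.0802 to 0.0994 FPKM.

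FPKM was summed per gene symbol, brought to a common scale with median-of-ratios factors from 12078 genes, and tested where deposited FPKM was at least 1 in at least 2 libraries (10122 genes). The 4 group means were fitted with limma 3.58.1 in R 4.3.3 (with statmod 1.5.0, trend and robust options) on log2(scaled FPKM + 0.5) for 6 comparisons, with Benjamini-Hochberg adjustment over all genes tested and 0.05 as threshold. Fold changes on this scale understate the change of low genes, and the fit gives all groups the same spread. The fit was also run on simulated data with independent normal values and the same spread in all groups. Such data cannot show whether the calls in these libraries hold. Alternatives were pseudocounts of 0.1 and 1, filters at 5 FPKM or none, other scalings, plain eBayes, the compared groups only, a replicate block, and each library left out, which assumes that the lone library left in its group varies like the others. Transcripts (18982 tested) were fitted likewise. Start sites (starts within 50 bases merged, 13051 tested), PGRP-LC coding ends and a crossed replicate block were added after the data were seen. Coding ends came from Ensembl BDGP6.54 release 115, in which 26 of the 27 transcripts had an identical structure. The other, the PGRP-LC transcript starting at 9344324, was placed in the first unit by its shared 3′ end. All 10 genes, the genes of the context and marker lists, and for PGRP-SB1, PGRP-SC2 and PGRP-LB the 3 genes of most similar profile are named by rule. Members and lists were chosen with earlier results of these data known.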

Additional observations from a re-analysis of the deposited data

Results flagged for a closer look

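PGRP-LE moved opposite ways in the 2 genotypes and at the 2 times, with no overlap of libraries in any of the 4 comparisons. It differed by −0.30 between vriΔ679 and wild type at ZT14 and by 0.18 at ZT2, and by −0.23 between ZT14 and ZT2 in vriΔ679 and by 0.24 in wild type. The difference of these differences was tested in the same fit and was −0.48 (SE 0.20, limma adjusted p = 0.188). It was −0.68 (limma adjusted p = 0.0173) without vriΔ679 ZT14 replicate 1, where the only ZT14 value left for vriΔ679 is that of the library that went against its label, and −0.27 (limma adjusted p = 0.0833) without that library, vriΔ679 ZT14 replicate 2. In that last fit the differences of vriΔ679 were −0.09 from wild type at ZT14 (limma adjusted p = 0.387) and −0.03 between ZT14 and ZT2 (limma adjusted p = 0.798). The difference of differences was −0.60 (limma adjusted p = 0.0474) with libraries scaled to equal totals, a scaling that moved the median of all genes by −0.13. Over all alternatives the limma adjusted p for PGRP-LE ranged from 0.0173 to 0.382.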

How the results depend on the processing

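No PGRP result reversed. Over 54 single-gene results, 948 of 1002 alternative values kept their side of the threshold, 34 lost it and 20 gained it. Most of these results were not called in the main fit and so had no call to lose. The 34 losses all fell among those called. For time in wild type, PGRP-LC stayed called in 11 of 19 alternatives, PGRP-LB and PGRP-SD in 12 of 19 each and PGRP-LF in 14 of 18. PGRP-LC for time in vriΔ679 stayed called in 16 of 19, and PGRP-LB for genotype over both times in 13 of 18. Another 48 values, counted among the 948, changed sign with neither value past the threshold. Scaling to equal totals called 4 of 9 genes for time in vriΔ679 (main count 1; 10.9 % of all genes) and 1 for genotype by time (main 0; 9.22 % of all genes). With only the compared groups in the fit, 0 were called for time in vriΔ679 (main 1; 2.17 % of all genes). In such a fit 1 was called for genotype at ZT14 (main 0; 8.73 % of all genes). With no filter, 1 was called for time in wild type (main 4; 3.87 % of all genes). Leaving out 1 library gave 0 to 1 calls for genotype at ZT2, 0 to 2 at ZT14, 0 to 1 over both times, 0 to 4 for time in vriΔ679, 0 to 4 in wild type and 0 to 1 for genotype by time. Calls over all genes then ranged from 81 to 615, 584 to 5193, 489 to 4085, 176 to 4602, 146 to 1455 and 250 to 4187 in the same order (main 292, 2260, 1424, 1009, 671 and 835). The correlations of replicate differences between groups ran from −0.143 to 0.270, and the highest was between wild type and vriΔ679 at ZT2. What replicates of equal number share was not tested. With the replicate block 3 genes were called for time in wild type (7.24 % of all genes), PGRP-LC ending at a limma adjusted p of 0.0535. There were 4 with the numbers crossed (6.93 % of all genes).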
